A study of Mus musculus with 4 samples.

Results

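Many aldehyde dehydrogenases are enzymes that oxidize aldehydes to carboxylic acids, while the family member Aldh18a1 makes an aldehyde. The 10 genes described here were taken up because Aldh1b1 was higher after washout of a γ-secretase inhibitor (GSI). The members were the rows named Aldh1b1, Aldh2, Aldh3a2, Aldh4a1, Aldh5a1, Aldh6a1, Aldh7a1, Aldh9a1, Aldh16a1 and Aldh18a1 among the 24391 genes of the count table, and all 10 symbols were found. Of these, 9 had reads and passed the filter on low counts, and Aldh5a1 was listed at 0 in every library. The family was chosen by the log2 fold change of Aldh1b1 between washout and GSI in these libraries, so that the members' differences are given as a description, with standard errors and without p-values. Another 11 genes of the table carry an Aldh name.

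The cells were Beko, a mouse leukemia line of progenitor T-cells with constitutive Notch activity, and no genotype beyond the line was labelled. Both groups received DAPT, a GSI, for 48 h (10 mg/ml per the labels, whereas the methods give the dose in μg/ml), so that neither group was untreated. The GSI group (n = 2) was collected at the end of this treatment, and the washout group (n = 2) was washed and kept for another 24 h in culture without inhibitor. GSI blocks the cleavage that frees the Notch intracellular domain, the partner of the DNA-binding protein RBPJ, and the comparison asks which transcripts differ once the inhibitor is gone. Inhibitor removal, the additional wash and the longer culture cannot be told apart, and the labels do not say whether the libraries came from separate cultures.

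RNA-Seq reads counted on genes were between 13716199 and 36364200 per library, and replicate 1 was the deeper library of both groups. CPM is the read count normalized to library size, here with TMM scaling factors between 0.930 and 1.08. All 10 T-cell progenitor markers checked had over 100 counts in every library. Past the adjusted p-value, 52.5% of all genes tested and 5 of these markers differed between the groups. Of these Ptcra, Cd3g (log2 fold change 0.86) and Rag2 (0.64) were higher and Ptprc (-0.89) and Thy1 (-0.58) lower upon washout. The 3 Notch targets taken as a check were higher upon washout, with log2 fold changes of 3.47 for Hey1, 3.20 for Dtx1 and 1.42 for Hes1, and Hes1 was at 0.92 without GSI replicate 2. Markers of other cell types differed as well. The summed level of 4 mast cell markers was 77.4 to 175.6 CPM in GSI and 2.23 to 9.34 CPM upon washout, all of it from Cpa3, while Ms4a2, Mcpt4 and Tpsab1 were at 0 in every library. The sum of 4 myeloid markers was 38.0 to 48.9 CPM in GSI and 4.91 to 5.49 CPM upon washout, mostly Itgam, with Lyz2 at 0 in every library. In total the 4 B cell, 3 stroma and 3 liver markers gave at most 0.548, 3.09 and 0.0937 CPM in any library, although the stroma marker Col1a1 was called lower with 29 and 18 counts in GSI against 4 and 0 (adjusted p = 0.00650 in edgeR). Of the erythroid markers, Hbb-b1 was at 0 in every library and Epor had 11.8 and 11.0 CPM in GSI against 6.26 and 6.40 CPM (log2 fold change -0.86, adjusted p = 0.00721). The part of these markers in the members' values was not tested. In bulk RNA, fewer cells of a type and less RNA per cell cannot be told apart.

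Members of the family act in different compartments and pathways. Aldh1b1 and Aldh2 are mitochondrial enzymes that oxidize acetaldehyde, the product of ethanol oxidation, and Aldh1b1 can also oxidize retinal. Aldh18a1 makes the aldehyde from which proline is built and Aldh4a1 removes the same intermediate during proline breakdown. Aldh6a1 acts in valine breakdown, Aldh7a1 in lysine breakdown, Aldh5a1 in the breakdown of the neurotransmitter GABA, Aldh9a1 in carnitine synthesis and Aldh3a2 on fatty aldehydes at the endoplasmic reticulum.

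RefSeq promoter windows (build GRCm38.p6) were searched over the 250 bases before the start site on both strands for TGGGAA (the RBPJ motif), CACGTG (an E-box, bound by Myc among others) and GGGCGG (an SP motif). Aldh2 had no entry, and the window of Aldh7a1 is not reported here. Windows of the other 8 members were searched, 9 in all with a pair of start sites for Aldh6a1. The RBPJ motif was found in 3 of these members, Aldh6a1, Aldh16a1 and Aldh18a1, and in 21.6% of all 32851 windows of the table. The E-box was in Aldh3a2 and Aldh18a1 and in 6.0% of all windows, and the SP motif was in 4 members and in 32.7% of all windows. Members are counted here by gene, whereas the percentages are shares of windows. The windows of Aldh1b1, Aldh18a1 and Aldh6a1 are shown because these genes were past the thresholds for washout against GSI given further on. Sequences run 5′ to 3′ on the strand of the gene, capitals mark a match to one of the motifs, and no matches overlap. Matches read on the opposite strand appear as TTCCCA or CCGCCC. The windows are chr4:45798772-45799021 (plus strand) for Aldh1b1, chr19:40588464-40588713 (minus strand) for Aldh18a1 and chr12:84451025-84451274 (minus strand) for Aldh6a1.
Aldh1b1: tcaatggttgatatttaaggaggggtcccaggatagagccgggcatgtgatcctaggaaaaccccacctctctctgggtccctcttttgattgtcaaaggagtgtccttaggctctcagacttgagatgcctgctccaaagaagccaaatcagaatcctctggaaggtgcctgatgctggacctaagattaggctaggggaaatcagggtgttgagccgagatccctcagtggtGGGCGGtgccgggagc
Aldh18a1: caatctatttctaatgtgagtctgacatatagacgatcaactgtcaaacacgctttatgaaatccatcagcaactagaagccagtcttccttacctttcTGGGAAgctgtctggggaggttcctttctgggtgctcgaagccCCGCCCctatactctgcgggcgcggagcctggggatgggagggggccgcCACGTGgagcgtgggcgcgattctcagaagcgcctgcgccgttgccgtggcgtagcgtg
Aldh6a1: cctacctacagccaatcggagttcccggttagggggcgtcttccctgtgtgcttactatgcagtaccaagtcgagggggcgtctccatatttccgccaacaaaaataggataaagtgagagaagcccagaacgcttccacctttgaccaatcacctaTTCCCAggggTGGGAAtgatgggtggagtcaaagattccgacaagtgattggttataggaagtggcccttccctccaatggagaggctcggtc

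In Aldh1b1 the only match was the SP motif, starting 16 bases before the start site (position -16), and TGGGAA is not in these 250 bases. Aldh18a1 held TGGGAA at position -151, the E-box at -59 and an SP motif on the opposite strand at -108. In the Aldh6a1 window shown, TGGGAA lay at -93 on the opposite strand and at -83 on the strand of the gene, which places both copies next to each other. The window of its other start site, chr12:84448318-84448567, held none of the motifs searched. A match is a description of letters and not of binding. In the paper, the RBPJ sites with reduced binding under GSI carried TGRGAA (R for A or G) and lay mostly far from start sites. TGAGAA and distal sequence were not searched here, so that a window without TGGGAA does not speak to such sites.

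Aldh1b1 lies on chromosome 4 from 45811894 to 45817476 (mm9, plus strand) and has 2 exon blocks in the GENCODE vM1 annotation, without an overlapping gene. Its counts were 4264 and 1701 in GSI replicates 1 and 2 and 22296 and 8985 upon washout, which is 133.2 and 116.5 CPM against 654.8 and 668.3 CPM. Both washout libraries lay above both GSI libraries, and the replicates of a group lay close to each other. Aldh1b1 was 5.29-fold higher upon washout, with a log2 fold change of 2.40 (SE 0.118, n = 2 per group). This is the value for which the family was chosen.

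Aldh2, on chromosome 5 from 122016036 to 122043833 (minus strand), went the other way. It had 182.5 and 175.2 CPM under GSI compared to 78.9 and 83.9 CPM after washout, so that the groups did not overlap. Aldh2 was 2.2-fold lower, with a log2 fold change of -1.14 (SE 0.0928, n = 2 per group). After a correction for GC content and gene length its log2 fold change was -0.90. Since both genes were counted in the same libraries, their ratio does not depend on the scaling. There were 0.730 and 0.665 reads of Aldh1b1 per read of Aldh2 in the GSI libraries, and 8.30 and 7.96 upon washout. Per kilobase of exon the ratio was 1.49 and 1.36 in GSI and 17.0 and 16.3 upon washout. By this measure Aldh1b1 was the higher of this pair in both groups, whereas by reads Aldh2 was the higher in GSI. The order in GSI thus depends on the exon lengths used.

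**Figure D1:**
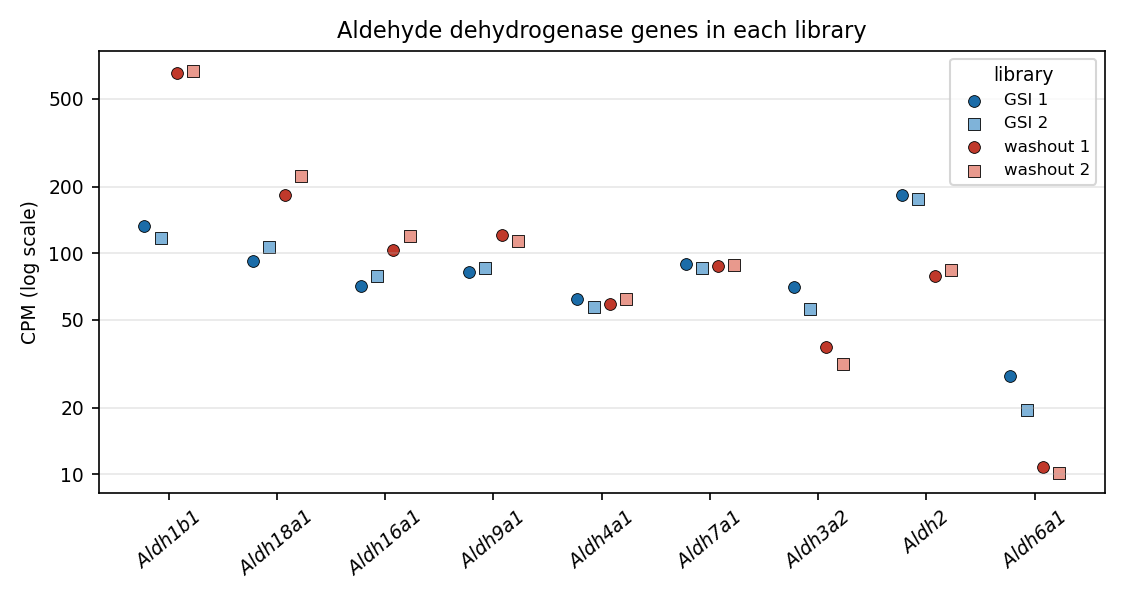
CPM (log axis) of the 9 detected aldehyde dehydrogenases in each of the 4 libraries, with circles for replicate 1 and squares for replicate 2, ordered by log2 fold change. Aldh1b1 reaches 654.8 and 668.3 CPM upon washout, while Aldh2, Aldh3a2 and Aldh6a1 lie lower in both washout libraries than in both GSI libraries.

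Both genes of proline metabolism behaved differently from each other. Aldh18a1, the synthetic enzyme (chromosome 19 from 40624747 to 40662953, minus strand), had 92.5 and 106.9 CPM under GSI compared to 183.6 and 223.1 CPM after washout. The groups did not overlap, and the log2 fold change was 1.03 (SE 0.134, n = 2 per group), just past the threshold of 1. It was 0.83 when libraries were scaled to the total count alone, 0.92 without GSI replicate 1 and 0.90 without washout replicate 2. The gene overlaps Gm15801 on the same strand, so that reads could be split between them. Aldh4a1, the degrading enzyme (chromosome 4 from 139178781 to 139205605, plus strand), had 61.9 and 56.8 CPM under GSI compared to 59.1 and 62.2 CPM after washout. Its groups overlapped, with a log2 fold change of 0.03 (SE 0.0971). With the total count alone it was -0.17, and 0.36 once GC content and length were corrected for. In counts, the ratio of Aldh18a1 to Aldh4a1 was 1.496 and 1.882 in the GSI libraries against 3.109 and 3.589 upon washout.

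Aldh6a1, the enzyme of valine breakdown (chromosome 12 from 85771673 to 85791900, minus strand), was the least abundant of the detected members. Its GSI libraries held 891 and 284 counts and its washout libraries 368 and 136, or 27.8 and 19.5 CPM against 10.8 and 10.1 CPM. Here the GSI replicates differed more from each other than the washout replicates did. The log2 fold change was -1.18 (SE 0.199, n = 2 per group), and it was -0.90 without GSI replicate 1. Aldh3a2, the fatty aldehyde dehydrogenase (chromosome 11 from 61036919 to 61080966, minus strand), was also lower, with 70.5 and 55.9 CPM under GSI compared to 37.4 and 31.5 CPM after washout. Both washout libraries lay below both GSI libraries. The log2 fold change of Aldh3a2 was -0.87 (SE 0.151), and it was past -1 with the total count alone (-1.07), without GSI replicate 2 (-1.02) and without washout replicate 1 (-1.01). Aldh6a1 overlaps 2900006K08Rik on the other strand. With the strand setting of the counting not stated, reads of such neighbors cannot be told apart.

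Smaller differences were seen for Aldh16a1 and Aldh9a1. Aldh16a1 (chromosome 7 from 52396054 to 52409954, minus strand, overlapping Pih1d1 on the other strand) had 71.2 and 78.9 CPM under GSI compared to 103.6 and 120.0 CPM after washout, with a log2 fold change of 0.57 (SE 0.113). Aldh9a1, the carnitine enzyme (chromosome 1 from 169280122 to 169298661, plus strand), had 82.1 and 85.4 CPM under GSI compared to 120.5 and 112.9 CPM after washout, a log2 fold change of 0.48 (SE 0.0914). Both genes were higher in both washout libraries and stayed under a log2 fold change of 1. Aldh7a1, the lysine enzyme, which overlaps Phax on the other strand, had 89.3 and 85.4 CPM under GSI compared to 87.2 and 88.4 CPM after washout. Its groups overlapped and its log2 fold change was 0.01 (SE 0.0880), or -0.19 with the total count alone. Aldh5a1, which overlaps 4932702P03Rik and 9330162012Rik on the other strand, was listed at 0 counts in all 4 libraries. This allows a level of up to 0.0881 to 0.223 CPM for 3 counts per library (counting error only). Whether the 0 comes from the counting was not tested.

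**Figure D2:**
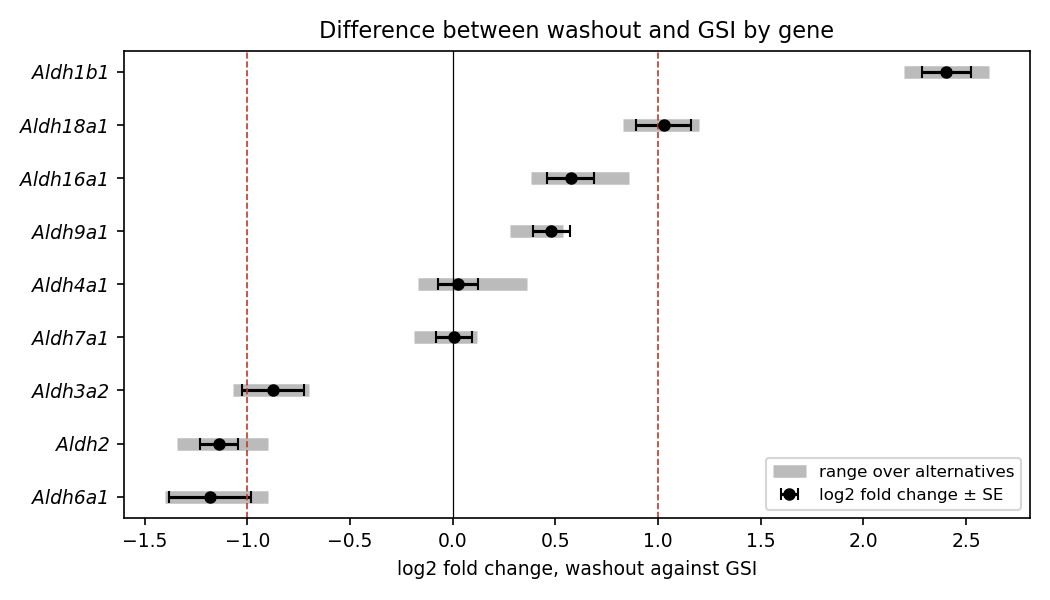
Log2 fold change of washout against GSI for the 9 members tested (points, with bars of 1 SE), with the gray range over the alternative settings and dashed lines at the thresholds of 1 and -1. The gray ranges of Aldh18a1, Aldh2, Aldh3a2 and Aldh6a1 cross a threshold, and Aldh1b1 (2.40) is the value that chose the family.

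A gene was called with an adjusted p-value under 0.05 in edgeR's quasi-likelihood test over 12266 genes if its log2 fold change also exceeded 1 in either direction. Of the 9 members tested, 2 were called higher (Aldh1b1 and Aldh18a1), where 7.74% of all genes tested were called higher. Likewise 2 were called lower (Aldh2 and Aldh6a1), where 11.7% of all genes were. Past the adjusted p-value alone were 4 higher members (27.0% of all genes) and 3 lower members (25.4%), leaving Aldh4a1 and Aldh7a1. Both washout libraries lay above both GSI libraries for 4 members (38.2% of all genes) and below them for 3 (39.1%). The members' median log2 fold change was 0.03, against -0.01 over all genes tested. Because this contrast chose the family, nothing is read from these counts.

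The summed level of the 10 members follows in part from the choice of the family by Aldh1b1 and is given as a description. It was 811.1 and 780.4 CPM under GSI compared to 1336 and 1400.0 CPM after washout. Without Aldh1b1, the other members, some of them higher and some lower, summed to 677.9 and 663.9 CPM in GSI and to 681.1 and 732.1 CPM upon washout. Aldh1b1 held 16.4% and 14.9% of the members' counts in GSI and 49.0% and 47.7% upon washout. For Aldh2 the share was 22.5% in both GSI libraries and 5.90% and 5.99% upon washout. The share of Aldh18a1 was 11.4% and 13.7% in GSI, and 13.75% and 15.9% upon washout.

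**Figure D3:**
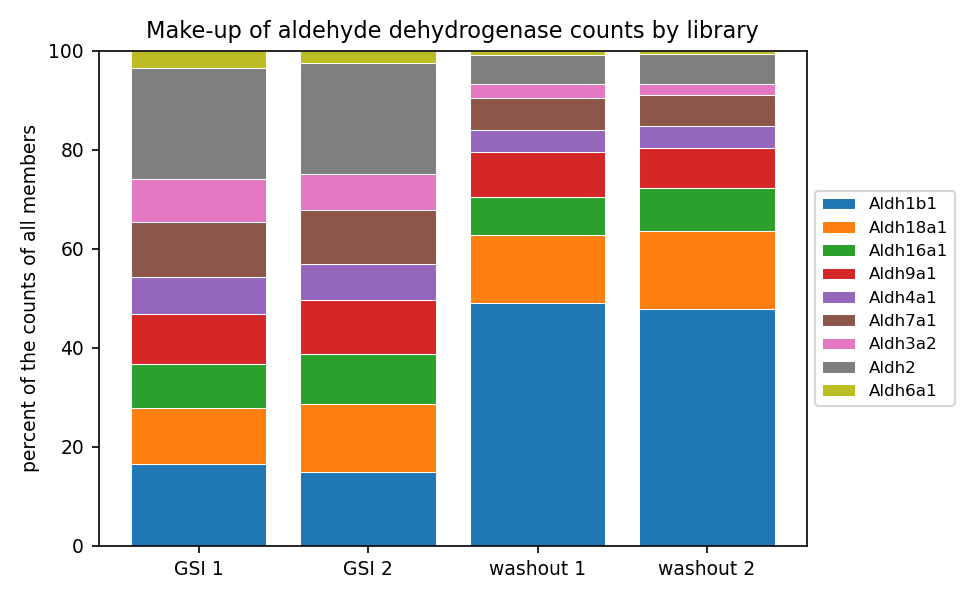
Share of each detected member in the summed counts of all members (percent, stacked to 100) in the 4 libraries, which are GSI replicates 1 and 2 and washout replicates 1 and 2. The Aldh1b1 segment grows from 16.4% and 14.9% to 49.0% and 47.7%, and the Aldh2 segment shrinks from 22.5% to 5.90% and 5.99%.

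Levels were compared between genes as CPM per kilobase of exon, with exon lengths from GENCODE vM1. In GSI, Aldh1b1 was the highest member with 54.3 ± 5.13 CPM per kilobase (SD, n = 2), followed by Aldh2 (38.0 ± 1.11), Aldh9a1 (29.6 ± 0.814), Aldh18a1 (25.1 ± 2.55), Aldh7a1 (16.9 ± 0.531), Aldh16a1 (13.6 ± 0.980), Aldh4a1 (12.1 ± 0.730), Aldh3a2 (11.2 ± 1.83) and Aldh6a1 (6.71 ± 1.68). Only the libraries of the neighbors Aldh4a1 and Aldh3a2 overlapped in this order. Upon washout Aldh1b1 stood at 287.9 ± 4.15 CPM per kilobase, and next came Aldh18a1 (51.2 ± 7.03), Aldh9a1 (41.2 ± 1.90), Aldh16a1 (20.3 ± 2.12), Aldh2 (17.3 ± 0.758), Aldh7a1 (16.9 ± 0.163), Aldh4a1 (12.3 ± 0.450), Aldh3a2 (6.13 ± 0.753) and Aldh6a1 (2.97 ± 0.139). The neighbors whose libraries overlapped were Aldh2 and Aldh7a1. Aldh2 thus went from rank 2 to rank 5. In CPM without the length, Aldh2 stood above Aldh1b1 in GSI. Aldh1b1 has 2 exon blocks and the other detected members have 11 to 22, so that reads across introns weigh differently on them.

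The other Aldh genes were low. Aldh1a1, Aldh1a2 and Aldh1a3, the cytosolic retinal dehydrogenases, were listed at 0 in every library. Aldh1a7, Aldh3b3 and Aldh8a1 had at most 7 counts in a library, Aldh1l2, a mitochondrial folate enzyme, had at most 10, and Aldh3a1 had 22 and 3 counts under GSI but 2 and 0 after washout. Only Aldh1l1, Aldh3b1 and Aldh3b2 passed the filter, and none of them was called, with an adjusted p-value of 0.151, 0.277 and 0.729 in edgeR. Aldh1l1, the cytosolic folate enzyme, had 2.44 and 6.30 CPM under GSI compared to 1.35 and 2.83 CPM after washout, a log2 fold change of -1.10 (SE 0.565), which was -0.28 without GSI replicate 2. It was called lower without GSI replicate 1 (-1.68, adjusted p = 0.0348), without washout replicate 2 (-1.62, adjusted p = 0.0409), without a filter beyond 1 count (-1.06) and in thinned counts with the replicate block (-1.02). Aldh3b1 had 2.81 and 1.51 CPM under GSI compared to 5.34 and 1.86 CPM after washout, a log2 fold change of 0.75 (SE 0.531), or -0.26 without washout replicate 1 and 1.27, then called higher (adjusted p = 0.0261), without washout replicate 2. Aldh3b2 had 25 counts in GSI and 21 upon washout over both replicates, with a log2 fold change of -0.22 (SE 0.495).

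Genes from the pathways around the members were examined in 7 lists. The lists include transporters and receptors beside enzymes, and not all of their genes share a substrate or product with a member. Of 86 listed genes, 66 could be tested. Of these, 5 were called higher (7.58%) and 7 lower (10.6%), and their median log2 fold change was 0.02. Among all genes tested, 7.74% were called higher and 11.7% lower. The lists were written with earlier results of these data known, and their counts describe them without a test of the list.

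Around Aldh18a1 and Aldh4a1, the proline and glutamate list had 11 tested genes. Of these, 2 were called higher, where 7.74% of all genes were, and none was called lower, where 11.7% were. Past the adjusted p-value alone 6 were higher, where 27.0% of all genes were (median log2 fold change 0.69). The count called higher was 1 with the total count alone and 0 in a test against a log2 fold change of 1 (glmTreat). With the replicate block 1 gene of this list was called lower. Oat, which links ornithine to the intermediate made by Aldh18a1, had 63.6 and 69.1 CPM under GSI compared to 113.8 and 121.2 CPM after washout (log2 fold change 0.83, SE 0.0963, adjusted p = 0.00107). Pycr1, which forms proline from this intermediate in mitochondria, went from 3.37 and 4.32 CPM to 5.55 and 6.84 CPM (0.69, SE 0.250, adjusted p = 0.0572). Prodh, which starts proline breakdown ahead of Aldh4a1, had overlapping libraries and a log2 fold change of -0.28 (SE 0.177, adjusted p = 0.229). The highest gene of the list was Gls2, a glutaminase, at 1.25 (adjusted p = 0.00361), and the lowest was Glul, glutamine synthetase, at -1.01 (SE 0.663, adjusted p = 0.247), which was 0.06 without GSI replicate 1 and -2.30, then called lower, without washout replicate 1. Got1 (1.18, named here after its value was seen) was the other gene called.

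Around Aldh6a1, 21 genes of branched-chain amino acid breakdown were tested. Bcat1, the cytosolic enzyme that takes the amino group from these amino acids, was the only one called, with 9.15 and 11.6 CPM in GSI against 74.7 and 83.3 CPM upon washout (log2 fold change 2.95, SE 0.148, adjusted p = 0.000281). The lowest was Bckdha, a subunit of the branched-chain ketoacid dehydrogenase, at -0.97 (SE 0.0964, adjusted p = 0.000670), which was -1.17 with the total count alone. Of the enzymes closest to Aldh6a1 in the valine pathway, Hibadh, which makes its substrate, was higher at 0.45 (adjusted p = 0.00659), and Hibch was at 0.09 (adjusted p = 0.620). Mut, which acts further down, was at 0.33 (adjusted p = 0.0571). Called higher were 4.76% of this list, against 7.74% of all genes. Past the adjusted p-value alone, 5 of the 21 genes were higher, where 27.0% of all genes were, and 3 lower, where 25.4% were. Next to Aldh7a1 and Aldh5a1, 6 of 7 genes of GABA and lysine breakdown were too low to be tested. Among them Abat, the GABA transaminase, had at most 15 counts and Aass, the entry enzyme of lysine breakdown, was listed at 0. Gcdh, the remaining gene, was at -0.39 (adjusted p = 0.0204).

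In the carnitine list none of 8 tested genes was called, while 6 were lower past the adjusted p-value alone (25.4% of all genes) and the median log2 fold change was -0.68. With the total count alone 2 of these genes were called lower, and with the replicate block 1, in thinned counts as well. A carnitine gene was also called lower without washout replicate 1. Both washout libraries lay below both GSI libraries for 7 of the 8 (39.1% of all genes). Aldh9a1 was higher (0.48), in the direction opposite to these 7. Tmlhe, the first enzyme of carnitine synthesis, and Bbox1, the last, were listed at 0. Cpt1c was the lowest gene at -1.14 (SE 0.412, adjusted p = 0.0580), and Slc22a5, a carnitine transporter, was the highest at 0.30 (SE 0.113, adjusted p = 0.0675). Around Aldh3a2, 2 of 8 fatty aldehyde genes were called lower, where 11.7% of all genes were, and none was called higher. Fewer were called lower without GSI replicate 1. Phyh, a peroxisomal enzyme of phytanic acid breakdown, fell from 41 and 11 counts to 5 and 2 (log2 fold change -2.80, SE 0.528, adjusted p = 0.00594), and without GSI replicate 1 it was -2.31 with an adjusted p-value of 0.0672. The other was Hacl1 (-1.18, named after its value was seen). Sgpl1, whose product is oxidized by Aldh3a2, was at -0.15 (adjusted p = 0.387), and the highest was Far1 at 0.30 (adjusted p = 0.327), which was -0.10 without washout replicate 1.

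Around Aldh1b1 and Aldh2, 8 alcohol and carbonyl enzymes were tested and 2 were called lower, where 11.7% of all genes were. They were Acss1 (-1.23, SE 0.134, adjusted p = 0.000871) and Acss2 (-1.09, named after its value was seen), which turn acetate, the product of acetaldehyde oxidation, into acetyl-CoA. The count called lower was 1 without washout replicate 1 and 3 without washout replicate 2. Adh5, the alcohol dehydrogenase that also handles formaldehyde, was the highest with 84.4 and 85.5 CPM under GSI compared to 158.5 and 161.5 CPM after washout (0.91, SE 0.0873, adjusted p = 0.000605). The ethanol enzymes Adh1, Adh4 and Adh7 were listed at 0. Of 9 tested retinoid genes, 2 were called higher, where 7.74% of all genes were, and 3 lower, where 11.7% were. The count called lower was 2 in DESeq2 and also smaller with any single library left out. In a test against a log2 fold change of 1 (glmTreat), 0 retinoid genes were higher and 1 was lower. In that test 0 genes of the alcohol and carbonyl list and of the fatty aldehyde list were lower. Rdh13, a retinol dehydrogenase family member, was the highest at 1.42 (SE 0.269, adjusted p = 0.00606). Rarg, a retinoic acid receptor, was the lowest, with 12.7 and 13.2 CPM under GSI compared to 1.85 and 2.75 CPM after washout (-2.54, SE 0.245, adjusted p = 0.000620). Rara and Rarb, the other receptors, were at -1.09 and -1.22 and Rdh10 was at 1.27, all named after their values were seen. Dhrs3, a retinal reductase, was at -0.43 (adjusted p = 0.0499).

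**Figure D4:**
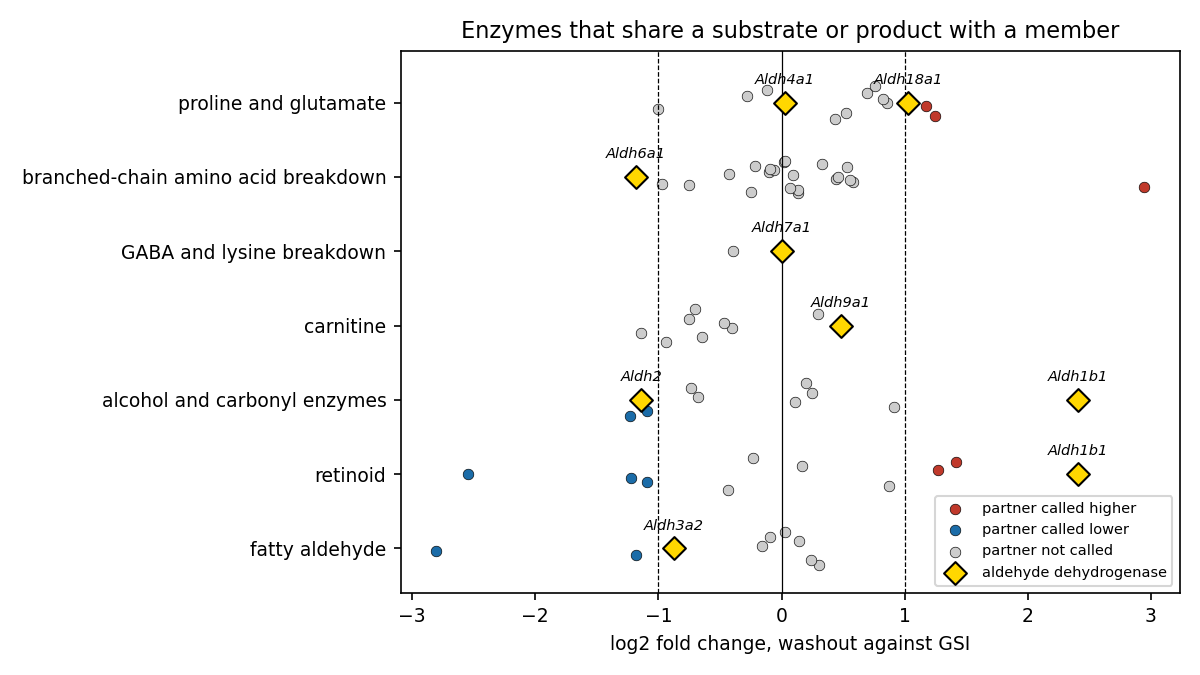
Log2 fold change of washout against GSI for the 66 tested partner genes in 7 lists (circles, red for called higher, blue for called lower, gray for neither) with the related aldehyde dehydrogenases as yellow diamonds, and dashed lines at 1 and -1. Bcat1 lies farthest to the right (2.95), Phyh farthest to the left (-2.80), and 7 of the 8 carnitine genes lie below 0.

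The 5 genes whose pattern was nearest to Aldh1b1, by the distance between centered log2 CPM over the 4 libraries, were Trmt61a (distance 0.224), Mettl1 (0.232), Itga9 (0.251), Alpl (0.286) and Ptcra (0.299). Their log2 fold changes lay between 2.21 (Trmt61a) and 2.44 (Alpl). Trmt61a and Mettl1 encode tRNA methyltransferase subunits, Itga9 an integrin chain, Alpl an alkaline phosphatase and Ptcra the pre-TCR α chain. With 4 libraries in 2 groups, this likeness describes size and direction of the difference. By Pearson correlation, none of these 5 was among the 5 nearest.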

How the data were processed

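RNA-Seq of 2 GSI and 2 washout libraries was analyzed. After trimming with trimGalore, the authors used HISAT2 2.2.1 for alignment to mm9, reporting a single alignment per read and limiting intron length, and obtained gene counts from summarizeOverlaps and iGenomes gene models. The deposited table holds these raw counts for each symbol, not normalized. Strand setting and overlap mode are not given in the sources used here. The members, lists and tests were chosen with earlier results of these data known. The named genes were all members, all other Aldh genes, the highest and lowest tested gene of each list, 12 fixed reaction partners, the 5 nearest genes to Aldh1b1 and 3 Notch targets as a check. One symbol of the lists was not matched in the table and was left out, and 1 cell type marker is not reported here.

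Testing used edgeR 4.0.16 under R 4.3.3 (filterByExpr, TMM, quasi-likelihood test without covariates, Benjamini-Hochberg adjustment over 12266 genes). For standard errors, the log2 fold change was taken over the root of its F statistic. P-values weigh the difference between the groups against the spread between these libraries, which may be technical. Replicates of a group differed by more than counting error, with a chi-square per degree of freedom of 14 in GSI and 22.9 upon washout. Of 24391 symbols, 20641 matched 1 GENCODE vM1 gene (mm9) for position and exon length. Floors of 3 counts cover counting error only. Alternatives were DESeq2 1.42.0, RLE factors, the total count alone, filters of 1 count and of 10 counts in each library, a replicate block, thinned counts, other thresholds, each library left out, and a GC content and length correction on 89.4% of the genes tested.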

Additional observations from a re-analysis of the deposited data

How the results depend on the processing

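The log2 fold change of Aldh1b1, for which the family was chosen in these libraries, was 2.2 (total count alone) to 2.61 (GC content and length correction with the replicate block), and this range does not support the choice. The number of members called higher, 2, was 1 with the total count alone, with at least 10 counts in every library, in thinned counts with and without the replicate block, and in glmTreat against 1, and 4 with the adjusted p-value alone. The number called lower, 2, was 0 in glmTreat and 1 after the GC content and length correction with and without the block, where Aldh2 was at -0.91 and -0.90. Leaving out each library gave 1 to 2 members higher and 1 to 3 lower, with the lone library assumed to vary like the other group. Partner genes called, 5 higher and 7 lower, were 15 and 18 with the adjusted p-value alone and 1 and 1 in glmTreat. The sign turned to -0.17 and -0.19 for Aldh4a1 and Aldh7a1 with the total count alone, to -0.01 and -0.03 with at least 10 counts, and, leaving out each library, the values ranged from -0.02 to 0.09 and from -0.01 to 0.03. Hibch was at -0.11 with the total count alone. Leaving out each library gave -0.02 to 0.23 for Hibch, -2.30 to 0.06 for Glul, -0.10 to 0.62 for Far1 and -0.26 to 1.31 for Aldh3b1. The total count alone moved the median of all genes from -0.01 to -0.21, so that each value is lower by about this shift, and the share of higher genes among those called from 39.8% to 23.0%. For the other changes the cause was not tested. Hes1 missed the call in DESeq2 (adjusted p = 0.0692). Of the 5 genes nearest to Aldh1b1, 4 stayed with a prior count of 0.5 and 0 by Pearson correlation. By CPM, Aldh1b1 ranked 2 in GSI.

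The labels number the replicates 1 and 2 in both groups. Their differences correlated at 0.497 over the genes tested, but with 2 pairs the numbers are not known to pair the samples. With the replicate block 2 members were called higher and 2 lower, Aldh1b1 was at 2.41, Glul and Cpt1c (both -1.06) passed both thresholds and 9 partner genes were called lower, and over all genes 981 were higher and 1576 lower, against 950 and 1437 without it.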
